A study of Mus musculus with 12 samples.

Results

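Expression was compared between MyoD-converted fibroblasts that carried a hairpin against Six4 and MyoD-converted fibroblasts that carried a control hairpin. These samples are 6 of the 12 single-colour arrays of the series, chosen by their titles: 3 arrays of shSix4 cells with pBABE-MyoD and 3 arrays of shLuc cells with pBABE-MyoD. Both groups are C3H/10T1/2 cells, an established line of mouse embryo fibroblasts that turns into skeletal muscle when it is made to express MyoD. Each line carried its hairpin stably and was infected with a pBABE retrovirus that the labels give as encoding Flag-MyoD-myc. The cells were grown in medium with 10% fetal bovine serum, and 24 h after infection they were moved for 24 h to differentiation medium with 2% horse serum. The remaining 6 arrays are the same lines infected with empty pBABE and treated alike, 3 arrays per line, and serve here as the comparison without MyoD. Each arm is 1 line with 1 hairpin label, and the labels do not say whether a line is a clone. Hairpin, line and Six4 level cannot be told apart.

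Six4 is a homeobox transcription factor of the sine oculis family, whose members bind the MEF3 element in promoters of muscle genes and act with Eya cofactors, phosphatases that they bring to DNA. MyoD, a basic helix-loop-helix protein, can switch other cell types to skeletal muscle. It binds E-boxes, turns on the second-wave factor myogenin, and works with MEF2 proteins on genes for the contractile apparatus. Loss of factors of this kind in the mouse embryo is known for weak activation of muscle genes, in particular those of fast fibres.

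The promoter sequences bear on 2 elements named in this background, the MEF3 element and the MyoD type of E-box. The windows shown were chosen, after the values were seen, from genes described in the results because they hold one of them within the 250 bases before the start of transcription: Six4 itself, myogenin, Mef2c, and 4 genes of mature muscle. Each line runs 5′ to 3′ on the strand of the gene and comes from RefSeq promoter windows on GRCm38.p6. Capitals mark the MEF3 core TCAGGTT, read on either strand (AACCTGA on the opposite one), and the E-box CAGCTG.
Six4, chr12:73113246-73113495, - strand: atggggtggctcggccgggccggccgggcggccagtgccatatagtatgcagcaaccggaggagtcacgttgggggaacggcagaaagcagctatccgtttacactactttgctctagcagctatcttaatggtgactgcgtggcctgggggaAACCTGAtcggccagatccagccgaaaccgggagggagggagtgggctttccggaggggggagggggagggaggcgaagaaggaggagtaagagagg
Myog, chr1:134289754-134290003, + strand: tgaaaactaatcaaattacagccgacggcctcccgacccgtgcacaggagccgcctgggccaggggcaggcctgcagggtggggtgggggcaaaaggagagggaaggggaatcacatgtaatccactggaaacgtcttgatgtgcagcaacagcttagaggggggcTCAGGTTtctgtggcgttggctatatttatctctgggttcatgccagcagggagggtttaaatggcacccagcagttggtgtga
Mef2c, chr13:83503784-83504033, + strand: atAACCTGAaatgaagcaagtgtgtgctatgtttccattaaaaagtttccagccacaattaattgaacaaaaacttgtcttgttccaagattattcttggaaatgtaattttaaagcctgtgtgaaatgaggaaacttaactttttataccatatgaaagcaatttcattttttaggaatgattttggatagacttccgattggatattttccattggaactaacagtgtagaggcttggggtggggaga
Actn2, chr13:12340733-12340982, - strand: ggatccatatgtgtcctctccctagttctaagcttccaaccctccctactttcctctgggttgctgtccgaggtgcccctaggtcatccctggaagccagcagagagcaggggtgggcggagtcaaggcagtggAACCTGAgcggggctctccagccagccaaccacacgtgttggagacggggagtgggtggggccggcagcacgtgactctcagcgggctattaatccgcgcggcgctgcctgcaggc
Tnnt2, chr1:135836084-135836333, + strand: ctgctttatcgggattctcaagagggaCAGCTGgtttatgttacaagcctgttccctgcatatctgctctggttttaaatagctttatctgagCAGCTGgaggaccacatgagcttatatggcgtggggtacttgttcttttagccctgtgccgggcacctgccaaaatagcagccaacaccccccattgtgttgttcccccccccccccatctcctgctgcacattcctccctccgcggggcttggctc
Chrna1, chr2:73580339-73580588, - strand: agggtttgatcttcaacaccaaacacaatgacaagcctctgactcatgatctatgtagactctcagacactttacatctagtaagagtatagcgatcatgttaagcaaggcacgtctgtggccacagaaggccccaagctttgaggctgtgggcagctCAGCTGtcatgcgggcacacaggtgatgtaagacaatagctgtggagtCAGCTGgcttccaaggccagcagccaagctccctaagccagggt
Pygm, chr19:6384158-6384407, + strand: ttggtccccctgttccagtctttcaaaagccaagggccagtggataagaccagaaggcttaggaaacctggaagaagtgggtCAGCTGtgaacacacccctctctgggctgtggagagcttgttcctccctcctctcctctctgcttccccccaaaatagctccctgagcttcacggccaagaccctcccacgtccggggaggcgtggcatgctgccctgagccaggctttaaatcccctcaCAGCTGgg
The Six4 and Myog windows hold the longer MEF3 form TCAGGTTTC, which contains the core. Among all 32851 RefSeq windows of this kind, which run from 250 bases before to 50 bases after a start, 4.07% hold the core, 0.429% the longer form and 16.3% CAGCTG, with both strands searched. Among the 354 windows of genes that were lower after knockdown, 4.52% hold the core, 0.847% the longer form and 23.7% CAGCTG. The longer form was in only 3 of these windows, among them a window of Six4 itself, the target of the hairpin. Among the 216 windows of genes that were higher, 2.78% hold the core, 0% the longer form and 14.8% CAGCTG. The 12629 windows of all genes tested hold the core in 3.25%, the longer form in 0.396% and CAGCTG in 15.6%. CAGCTG is one of the E-boxes written CANNTG, which 70.9% of the windows of lower genes, 68.1% of those of higher genes and 64.6% of those of all genes tested hold. A gene can have several windows, which may overlap or lie far apart. Six4, Mef2c and Tnnt2 also have windows, not shown, that hold neither the MEF3 core nor CAGCTG. A match says that these letters are present, not that a factor binds there.

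Expression levels are given as log2 of the processed spot signal minus the 75th percentile of the same array, so a level of 0 is a bright probe. A level of one probe was not set against that of another. Differences are shSix4 minus shLuc on this log2 scale, with the standard error (SE) of the limma fit, and 1 unit is a 2-fold difference. Of 41174 probes, 22244 to 27437 were well above background per array, and no spot was saturated. Replicate number and slide coincide: each of the 3 slides carries all 4 groups at the same positions, so that position and group cannot be told apart. Slide 1 was scanned in another month than slides 2 and 3. Among the 6 arrays with MyoD, pairs with the same hairpin had r = 0.9547 to 0.9916 over 12144 genes, and pairs with different hairpins 0.9555 to 0.9863, ranges that overlap. Nothing in the labels tells if the 3 replicates came from separate cultures, so a p-value here covers the spread of these arrays, which may be technical alone.

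Six4 was lower in the shSix4 line. Its level with MyoD was -1.38, -1.58 and -0.78 on slides 1, 2 and 3 of the shLuc line. The shSix4 line read -2.97, -2.86 and -1.47 on the same slides. The shSix4 array was below the shLuc array of its own slide each time, but the ranges of the groups overlapped, because both slide 3 arrays were high. The difference was -1.18 ± 0.26 (SE, n = 3 per group), a 2.27-fold reduction with an adjusted p of 0.0383. Without the slide as a block the same difference had an adjusted p of 0.551. With empty vector the difference was -0.92 ± 0.26 (adjusted p 0.16), and on slide 2 it was only -0.12. Six4 remained well above background on all 3 shSix4 arrays with MyoD. Six5, a relative known from the myotonic dystrophy locus, had 0.66 (adjusted p 0.0612), Six2 0.18, and the cofactors Eya3 and Eya4 had 0.08 and -0.16. Of these genes, Six4 was the only one past the threshold of 0.05.

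The Myod1 probe was examined because the retrovirus supplies MyoD. Its level with MyoD was 0.14, -0.11 and 1.31 by slide in the shLuc line and -2.11, -0.79 and -0.15 in the shSix4 line. The groups did not overlap, and the difference of -1.46 ± 0.47 did not pass the threshold (adjusted p 0.143). The sources used here do not give whether this probe reads the viral MyoD message, the cell's own, or both. Its part in the differences below was not tested. Myog, which encodes myogenin, stood at 8.18, 7.99 and 7.88 in shLuc cells and at 7.22, 6.45 and 6.90 in shSix4 cells. Its groups did not overlap either, with a difference of -1.16 ± 0.31 and an adjusted p of 0.0689.

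**Figure D1:**
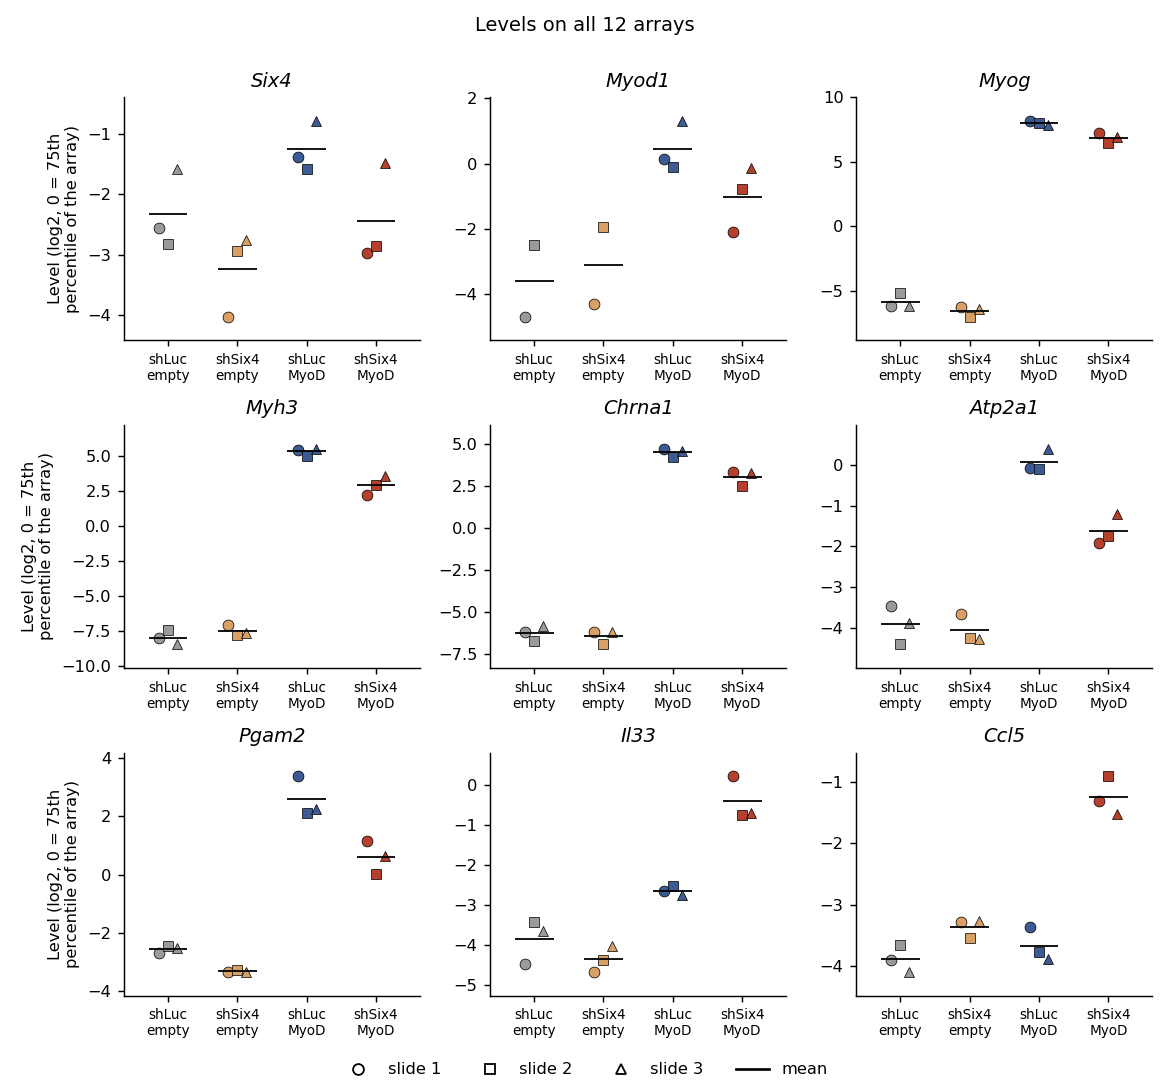
Levels of 9 genes on the 12 arrays, as log2 signal minus the 75th percentile of the array, by group, with 1 symbol per slide and a line at the mean. Six4 and the muscle genes were lower and Il33 and Ccl5 higher in shSix4 than in shLuc cells with MyoD on every slide. With empty vector the slide 3 values of Myod1 are missing, and Myog, Myh3 and Chrna1 were mostly not above background.

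With MyoD, 534 of 12289 genes differed between the lines at an adjusted p under 0.05 (4.35%), of which 331 were lower in shSix4 cells (2.69%) and 203 higher (1.65%). All 534 had the same sign on the 3 slides. A change of at least 2-fold was reached by 191 of the lower and 56 of the higher genes, so the lower genes moved further. Among all 12189 genes with a value on every slide, 2335 (19.2%) were lower on all 3 slides and 2832 (23.2%) higher, so agreement in sign across slides was by itself frequent. Groups without overlap were found for 760 genes in the lower direction (6.24%) and 662 in the higher (5.43%). The counts rest on comparing arrays within a slide: without the slide as a block 38 genes passed (0.309%), 29 lower (0.236%) and 9 higher (0.0732%), and all 38 were among the 534. They also rest on the third shLuc array with MyoD: 60 genes passed without it, against 129 to 255 when any other array with MyoD was left out. With whole slides left out, 614 genes passed without slide 1, 3 without slide 3 and 0 without slide 2 in limma, where 2197 had an unadjusted p under 0.05. A bulk measurement cannot tell fewer converted cells from less of a message per converted cell, and this applies to each muscle gene below.

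The naming rule chose 86 genes past the threshold with MyoD, and these were followed through every array left out. Of them, 18 stayed past it without any 1 of the 12 arrays, and all 86 kept their direction. Those 18 were Ccl5, Chrna1, Dscam, Ephb1, Fgf10, Kcnip4, Klrb1a, Matn3, Me1, Mef2c, Parm1, Pik3r5, Scg5, Slc2a4, Slc5a7, Ugt2b37, Vegfc and Xdh. Without the block 15 of the 86 passed. Among the called genes 167 had more than 1 kept probe, and in 15 of them another probe had the opposite sign, past an unadjusted p of 0.05 in 2, Creb1 and Pde4dip.

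The 15 genes with the lowest differences held muscle genes and genes of other functions. Myosin heavy chains Myh6 and Myh7, nebulin, and the channel subunit gene Abcc9 were among them. Dscam, a cell adhesion molecule of the immunoglobulin family, went from -2.11, -1.64 and -1.56 in shLuc cells to -6.51, -3.80 and -4.18 in shSix4 cells, with no overlap, a difference of -3.06 ± 0.39 and an adjusted p of 0.00904. Ephb1, a receptor for ephrin-B ligands, went from -2.64, -3.25 and -3.15 to -5.96, -5.48 and -5.07, a difference of -2.49 ± 0.31 (adjusted p 0.00801). The imprinted genes Peg10, derived from a retrotransposon and known from placenta, and Cdkn1c, a cyclin-dependent kinase inhibitor, fell by 2.63 and 2.48. Parm1, which encodes a mucin-like membrane protein, stood at 4.22, 4.63 and 4.56 in shLuc cells and at 0.87, 2.62 and 2.64 in shSix4 cells, so that its most different slide was slide 1. The embryonic haemoglobin chain Hbb-bh1 (-2.93), Lrmp (-2.86), the sulfotransferase gene Chst8 (-2.66), the keratin gene Krt23 (-2.62), the secreted factor gene C1qtnf3 (-2.48) and D7Ertd443e (-2.42) completed the group. Of these 15 genes, 14 also belonged to the genes that MyoD raised at least 2-fold in the mean of both lines, a class that holds 5.04% of all genes tested. Of the 15 genes with the highest differences, 4 did.

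**Figure D2:**
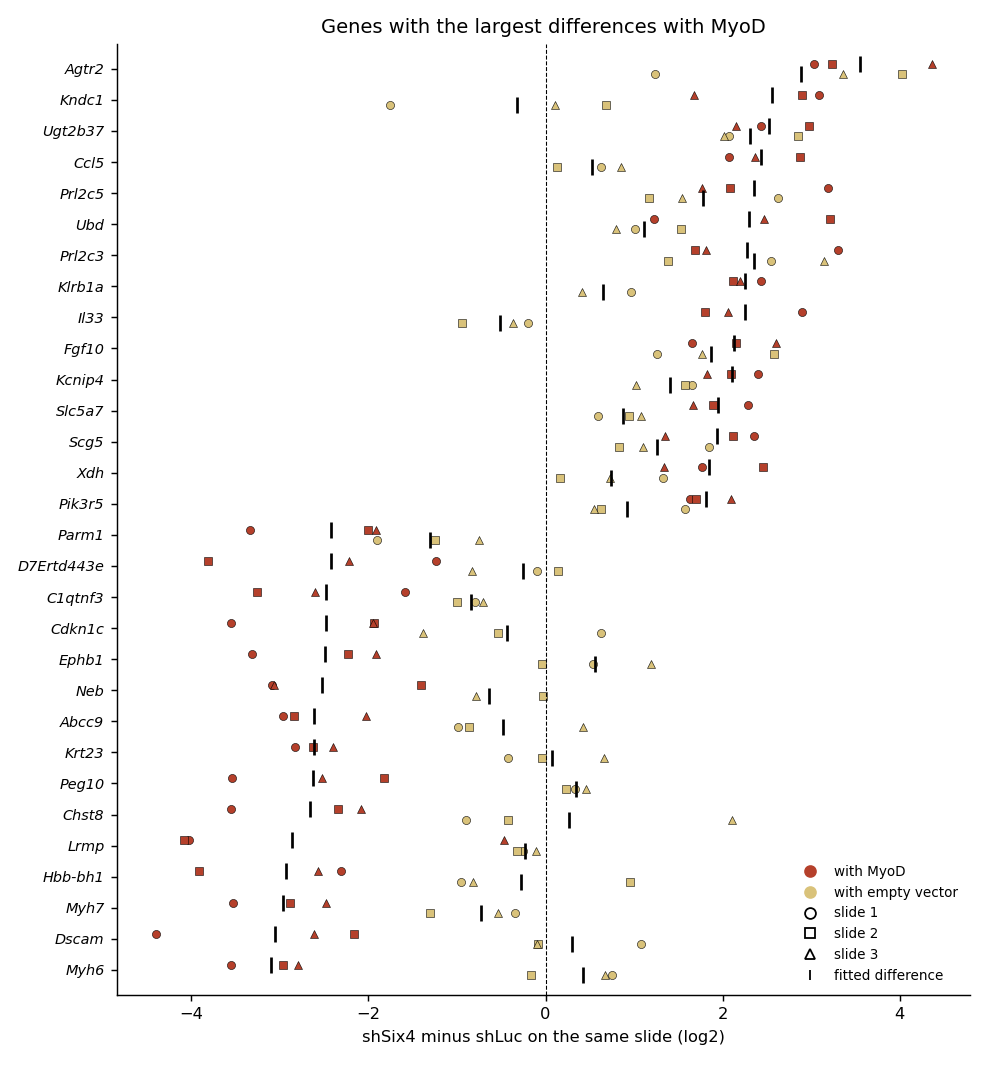
Differences between shSix4 and shLuc on each slide (log2) for the 15 lowest and the 15 highest genes with MyoD, with the differences of the same genes with empty vector beside them. With MyoD each gene has its 3 slides on one side of 0, which the choice of these genes required, while several of the lowest genes scatter around 0 with empty vector.

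Genes of the contractile apparatus were lower as a group. Of 60 sarcomere genes measured, 26 fell, against 2.69% of all genes, and none rose. On all 3 slides 50 were lower and 2 higher, against 19.2% and 23.2% of all genes. The median difference over the 60 genes was -1.22, and by slide -1.37, -1.15 and -1.04, against 0.02 over all genes tested. With empty vector the median was -0.20. A gene could enter through 1 group alone. With probes well above background on all 12 arrays, 15 of 30 sarcomere genes fell and the median with MyoD was -0.91. Of the 26, 6 also passed without the slide as a block. Leaving out 1 array with MyoD left 7 to 17 called genes, except that 3 remained without the third shLuc array. Without slide 1, 27 passed, where 449 of all 12289 genes were lower. Without slide 2 or slide 3, 0 passed.

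Myosin heavy chains, the motor proteins of the thick filament, were lower on all 3 slides in 7 of 7 genes, with a median of -1.94, and 3 passed. Myh3, the embryonic isoform that is made early in muscle formation, stood at 5.41, 5.0 and 5.5 in shLuc cells and at 2.17, 2.94 and 3.57 in shSix4 cells. The lowest shLuc array was well above the highest shSix4 array, and the difference was -2.41 ± 0.38 (adjusted p 0.0119, and 0.0297 without the block). Myh6 stood at -1.14, -0.02 and 0.08 against -4.69, -2.98 and -2.72, a difference of -3.10 ± 0.46 (adjusted p 0.00979). Myh7, the slow and cardiac isoform, stood at 3.74, 5.04 and 5.26 against 0.21, 2.15 and 2.78, a difference of -2.96 ± 0.56 (adjusted p 0.0221). Myh6 and Myh7 are near-identical in sequence, and the split between them is uncertain. The perinatal isoform Myh8 (-1.93) and the adult fast isoforms Myh2 (-1.94), Myh1 (-1.64) and Myh4 (-1.45) had differences of similar size that did not pass. Among 5 light chain genes, Myl1 (-1.87 ± 0.33), Myl4 (-1.76 ± 0.27) and Mylpf (-1.44 ± 0.24) fell, while Myl3 and the kinase gene Mylk2 both had 0.35.

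Troponins, the calcium switch of the thin filament, were the family with the highest share of calls: 7 of 8 genes fell and all 8 were lower on every slide, with a median of -1.59. Tnnc2, the calcium-binding subunit of fast fibres, stood at 7.98, 6.91 and 7.08 in shLuc cells and at 5.84, 5.34 and 5.79 in shSix4 cells, with no overlap and a difference of -1.66 ± 0.21 (adjusted p 0.00801). Both fibre types were represented, with Tnnt1 (-1.89), Tnni1 (-1.62) and Tnnc1 (-1.33) of slow fibres and Tnni2 (-1.29) of fast ones. The cardiac forms Tnnt2 (-1.56) and Tnni3 (-0.92) fell too. The fast subunit gene Tnnt3 had -1.89 with an adjusted p of 0.164. Of the 9 other thin filament genes 2 fell, nebulin (Neb), which spans the filament, by 2.52, and the pointed-end cap Tmod1 by 1.29. Acta1 and Actc1, the skeletal and cardiac actins, had -0.91 and -0.93 and did not pass (adjusted p 0.0915 and 0.134).

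Titin, M-band and assembly proteins gave 6 calls in 11 genes. Ttn, the molecular spring that links Z-disc to M-band, stood at 2.06, 2.24 and 2.15 in shLuc cells and at -0.98, 0.87 and -0.09 in shSix4 cells, a difference of -2.22 ± 0.43 (adjusted p 0.0242). The M-band proteins Myom3 and Myom1 fell by 2.38 and 1.63, the myosin-binding protein gene Mybph by 1.43, and the myosin chaperone gene Unc45b by 1.67. Z-disc genes, which anchor and signal at the ends of the sarcomere, were lower on all slides in 17 of 20 and passed in 5. These were the alpha-actinin genes Actn2 (-2.16 ± 0.37) and Actn3 (-1.25), the intermediate filament gene Des (-1.92), Ldb3 (-1.86) and Cryab (-0.90). In shSix4 cells Actn2 was well above background on 1 of 3 arrays.

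**Figure D3:**
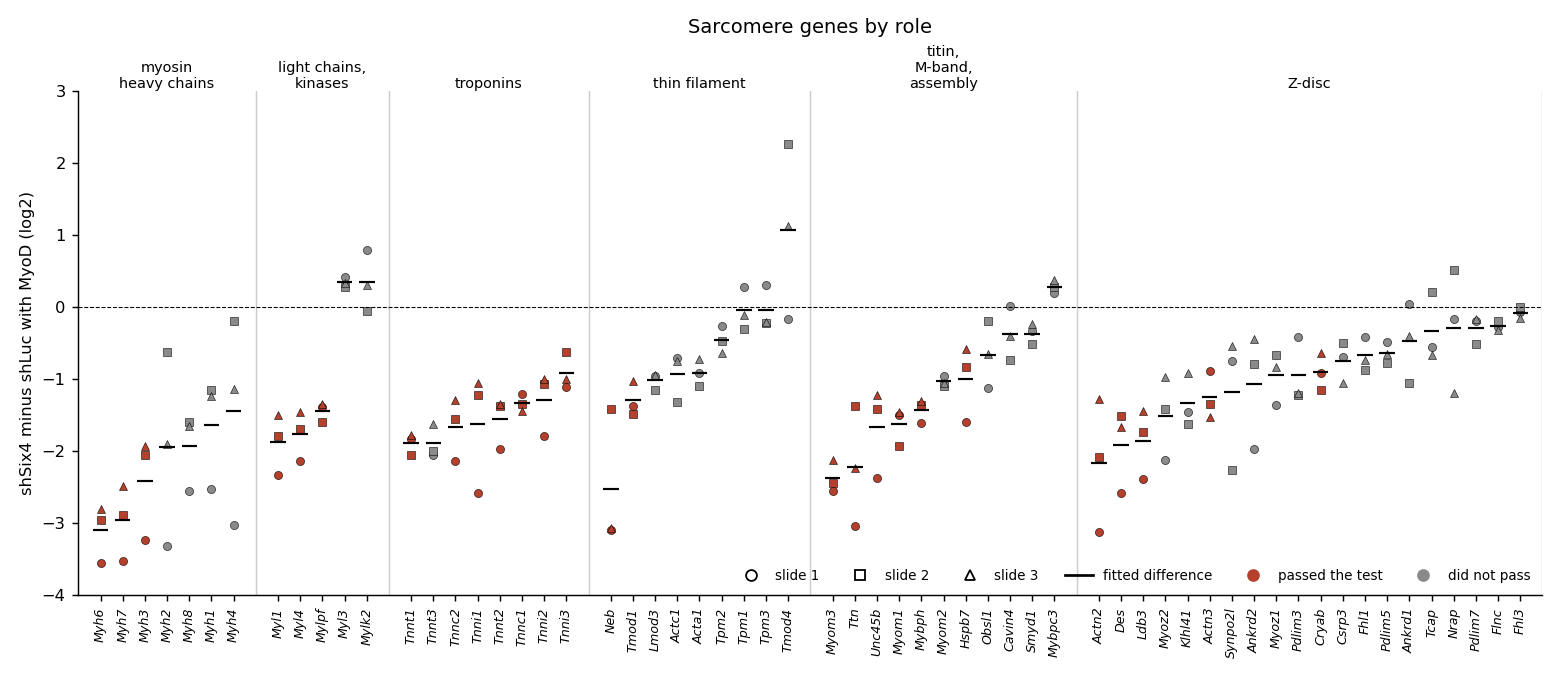
Differences between shSix4 and shLuc with MyoD on each slide (log2) for 60 sarcomere genes in 6 roles, red where the gene passed an adjusted p of 0.05. The 8 troponins lie below 0 on every slide, and genes that did not pass lie mostly below 0 as well, with a wider scatter among slides.

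Genes that couple excitation to contraction, which move calcium in and out of the store, were lower to a similar extent. Of 19 measured, 9 fell (2.69% of all genes did) and none rose, 16 were lower on all 3 slides (19.2% of all genes were), and the median was -1.23 (-1.38, -0.93 and -1.02 by slide; -0.02 with empty vector). Without the block 1 of them passed. Dropping 1 array with MyoD left 2 to 5, and 0 without the third shLuc array. The median was -0.71 without the first shLuc and -0.78 without the second shSix4 array. With probes well above background on all 12 arrays, 5 of 11 genes fell and the median was -0.70. Above background on no shLuc array with empty vector were 7 of the 19. Atp2a1, the calcium pump of the sarcoplasmic reticulum in fast fibres, stood at -0.08, -0.11 and 0.40 in shLuc cells and at -1.91, -1.75 and -1.21 in shSix4 cells. The groups were more than 1 unit apart, and the difference was -1.69 ± 0.25 (adjusted p 0.00979). Cacna1s, the voltage sensor in the muscle membrane, stood at 0.93, 0.82 and 1.2 against -1.63, -0.62 and 0.00, a difference of -1.73 ± 0.26 (adjusted p 0.0102). The other calls were the calcium buffer Pvalb (-2.02), the pump inhibitor Sln (-1.83), the store proteins Casq2 (-1.51), Srl (-1.50) and Hrc (-1.20), the slow pump Atp2a2 (-0.77) and the channel subunit Cacnb1 (-0.70). A probe for another part of Atp2a2 had 0.048. The release channel Ryr1 (-1.23), the junction protein Jph2 (-1.34) and the channel subunit Cacng1 (-1.47) did not pass.

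Chrna1, the acetylcholine-binding subunit of the muscle receptor, had one of the steadiest differences. It stood at 4.73, 4.24 and 4.61 in shLuc cells and at 3.33, 2.51 and 3.28 in shSix4 cells, a difference of -1.49 ± 0.14 (adjusted p 0.00308), and stayed past the threshold without any 1 array. Without the block its adjusted p was 0.0917. It was the 1 call among 11 genes of the receptor and the neuromuscular junction, where 2.69% of all genes fell. The subunits Chrng, of the fetal receptor, and Chrnd had -1.38 and -1.14 (adjusted p 0.19 and 0.122). Among 7 muscle ion channel genes Abcc9, which encodes the regulatory subunit of a potassium channel gated by ATP, fell by 2.61 ± 0.55 (adjusted p 0.0316). Kcnj12, an inward rectifier, had -2.18 (adjusted p 0.0549).

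Of 29 genes of muscle energy metabolism, 10 fell (2.69% of all genes did) and none rose. The median was -0.25, and -0.48 without the first shSix4 array with MyoD. Pgam2, the muscle form of phosphoglycerate mutase in glycolysis, stood at 3.37, 2.12 and 2.23 in shLuc cells and at 1.15, 0.01 and 0.64 in shSix4 cells, with no overlap and a difference of -1.97 ± 0.29 (adjusted p 0.00979). Myoglobin, the oxygen store encoded by Mb, stood at 2.18, 0.61 and 1.15 against 0.19, -1.64 and -0.48, a difference of -1.95 ± 0.30 (adjusted p 0.0102). The insulin-responsive glucose transporter gene Slc2a4 fell by 1.81, and with empty vector by 2.38 (adjusted p 0.00452). Pygm, which breaks down muscle glycogen, was well above background on 0 of 3 shSix4 arrays and on all 3 shLuc arrays. Its mean level was -4.79 in shLuc cells and -6.53 in shSix4 cells, and it was at least 2.1-fold lower (adjusted p 0.00913). The other calls of the list were Cox8b (-1.62), Smtnl2 (-1.47), Ckb (-1.24), Fabp3 (-0.98), Gys1 (-0.59) and Aldoa (-0.56). Smtnl2, a smoothelin-like gene, was counted with this list but is not a metabolic enzyme. The muscle creatine kinase gene Ckm had -1.55 with an adjusted p of 0.0636. Without the block 3 of the 10 passed, and leaving out 1 array with MyoD left 2 to 6.

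Of 9 small heat shock protein genes, which protect filaments in muscle, 3 fell: Hspb2 (-1.33 ± 0.23), Hspb7 (-1.0) and Cryab. For each list in this paragraph, the share of all genes that fell was 2.69%. Hspb2 stood at 1.36, 1.59 and 1.31 in shLuc cells and at -0.23, -0.03 and 0.53 in shSix4 cells. 0 of the 3 passed without the block, and leaving out 1 array with MyoD left 0 to 2. Of 15 muscle ubiquitin ligases and adaptors 5 fell, namely Klhl31 (-1.68), Trim63 (-1.48 ± 0.26), which marks myosin for breakdown, Trim54 (-1.35), Asb2 (-1.24) and Klhl30 (-1.10). Without the block 0 passed. Leaving out 1 array with MyoD left 0 to 3 of the 5. Asb2 and Klhl30 also fell with empty vector, by 1.19 and 1.45 (adjusted p 0.0381 and 0.015). Of 14 RNA-binding and splicing regulators 3 fell. Rbm24, a splicing factor of striated muscle, stood at 2.60, 2.98 and 2.99 in shLuc cells and at 0.88, 0.91 and 1.46 in shSix4 cells, a difference of -1.78 ± 0.33 (adjusted p 0.0209). Cpeb3 and Rbm38 both fell by 0.92. Of these 3, 0 passed without the block, 0 without the third shLuc array with MyoD and 0 without the second shSix4 array with MyoD.

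Among 20 myogenic transcription factors and cofactors, Mef2c and Rbm24 fell, where 2.69% of all genes did. Mef2c stood at -0.10, 0.61 and 0.16 in shLuc cells and at -2.03, -0.78 and -1.18 in shSix4 cells, with no overlap and a difference of -1.56 ± 0.21 (adjusted p 0.00913, and 0.132 without the block). The list's median was -0.35, with 14 genes lower on all slides, against 19.2% of all genes. Of its genes 0 passed without the block. Mef2a (-0.83) came close to the threshold (adjusted p 0.0581). Of 18 inhibitors of myogenic basic helix-loop-helix factors, none passed. Of 35 genes of myoblast fusion and adhesion, 1 fell: Mymk, the membrane activator of fusion, with 3.89, 3.63 and 4.09 in shLuc cells, 2.14, 2.47 and 2.98 in shSix4 cells and a difference of -1.34 ± 0.27 (adjusted p 0.029). The share of this list that fell was near the 2.69% of all genes. Mymk was not past the threshold without the block (adjusted p 0.206), nor without any of the 3 shLuc arrays or the second shSix4 array with MyoD. In the Notch list of 20 genes Hes6 (-0.91), which promotes muscle differentiation, and the receptor Notch3 (-0.78) fell. Notch3 also fell with empty vector, by 0.83 (adjusted p 0.0451).

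The list of cyclin-dependent kinase inhibitors, which hold cells out of division, and the retinoblastoma family gave 3 lower calls in 19 genes. Its median was only -0.06. On all slides 8 were lower and 5 higher, against 19.2% and 23.2% of all genes. For each list in this paragraph, the share of all genes that fell was 2.69%. Cdkn1c, which encodes p57, stood at -2.10, -1.43 and -1.21 in shLuc cells and at -5.65, -3.36 and -3.16 in shSix4 cells, a difference of -2.48 ± 0.44 (adjusted p 0.0174). The retinoblastoma gene Rb1 fell by 0.82 and Gadd45b by 0.54. In the insulin-like growth factor axis 3 of 15 genes fell, all of them binding proteins. Igfbp5, the binding protein that rises early in muscle differentiation, stood at 0.21, 0.51 and 0.64 against -1.14, -0.63 and -0.36, a difference of -1.17 ± 0.22 (adjusted p 0.0228). Igfbp1 fell by 1.27 and Igfbp2 by 1.05, and Igfbp2 also fell with empty vector, by 1.22 (adjusted p 0.0164). Dropping 1 array with MyoD left 0 or 1 call in each of these lists. Without the block 0 genes passed in these lists, the Notch list and the fibroblast matrix list.

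Genes that mark other cell types that C3H/10T1/2 cells can form were examined beside the muscle genes. Over all genes tested 2.69% fell and 1.65% rose, the shares to set beside the counts of these lists. Smooth muscle markers gave 5 lower calls in 14 genes, with a median of -0.66 with MyoD and -0.61 with empty vector. Of the 5, Des, Ldb3 and Casq2 also belong to skeletal lists. Cnn1, calponin of smooth muscle, stood at -0.39, -0.07 and -0.14 in shLuc cells and at -1.45, -2.57 and -2.38 in shSix4 cells, a difference of -1.93 ± 0.39 (adjusted p 0.028), and had -2.08 with empty vector. Mylk, the myosin light chain kinase of smooth muscle, fell by 1.21. Besides Cnn1, the defining markers of smooth muscle were Acta2 and Myh11. Acta2 had mean levels of 8.22 in shLuc and 7.55 in shSix4 cells with MyoD. Myh11 had -5.84 and -5.58, and was above background on 1 shLuc and 2 shSix4 arrays. Leaving out 1 array with MyoD left 1 to 3 of the 5. The mean level of the list was 2.13 to 2.23 on the shLuc arrays and 1.29 to 1.39 on the shSix4 arrays with MyoD. Of 46 fibroblast matrix genes, 4 fell and 1 rose. These were Fap (-1.89), a surface protease of activated fibroblasts, Lum (-1.36), Col8a1 (-1.13), Col4a2 (-1.0) and Thy1 (0.67). Lum and Col8a1 also fell with empty vector, by 1.99 and 1.35 (adjusted p 0.0209 and 0.0171). The mean level of the matrix list was 2.61 to 3.26 on shLuc arrays and 2.47 to 3.25 on shSix4 arrays, and 6 defining markers were above background on every array with MyoD. Their mean levels were, for Col1a1, 7.5 in shLuc and 7.51 in shSix4 cells, for Col1a2 8.97 and 8.81, and for Col3a1 6.89 and 6.85. For the surface proteins Thy1, Pdgfra and Pdgfrb they were 3.31 and 3.98, 1.27 and 1.90, and 4.51 and 4.66.

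Of 19 adipocyte genes 2 fell and 2 rose, where 2.69% of all genes fell and 1.65% rose. The fatty acid transporter gene Cd36 fell by 1.40 together with Slc2a4, and the lipase inhibitor gene Angptl4 and the early adipogenic factor gene Cebpd rose by 1.43 and 0.64. The list's mean level was -0.51 to -0.06 on shLuc arrays and -0.07 to 0.09 on shSix4 arrays, with Adipoq above background on 0 of 6 arrays and Plin1 on 1. Fabp4 and Pparg were above background on all 6, with mean levels in shLuc and shSix4 cells of -0.95 and -1.51 for Fabp4 and of 1.38 and 1.93 for Pparg. Of 12 osteoblast genes 2 rose, Dmp1 (1.29 ± 0.25), a matrix protein of bone, and Enpp1 (0.67), which makes pyrophosphate. Their list's mean level was -1.42 to -1.28 on shLuc and -1.17 to -0.78 on shSix4 arrays. Of 9 chondrocyte genes 1 fell, Matn3, a cartilage matrix protein, which was at least 2.76-fold lower (mean level -4.49 in shLuc and -6.85 in shSix4 cells, well above background on 3 and 0 arrays, adjusted p 0.00646). That list's mean level was -1.36 to -1.24 on shLuc and -1.83 to -1.53 on shSix4 arrays. Of 6 leukocyte and endothelial genes Cd14 rose by 0.76. The list's mean level was -3.50 to -3.10 and -3.36 to -2.82, and of its defining markers Ptprc and Pecam1 were above background on 0 of 6 arrays and Cdh5 on 1. The part of these marker levels in the other results was not tested.

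Genes that rose in shSix4 cells included secreted signalling proteins. Of 22 chemokines and cytokines 6 rose and 1 fell, against 1.65% and 2.69% of all genes. On all slides 13 were higher and 3 lower, against 23.2% and 19.2% of all genes. The median was 0.57 with MyoD and 0.07 with empty vector. It was 0.36 without the first shLuc array, and 0.29 and 0.32 without the second and the third shSix4 array with MyoD. Ccl5, a chemokine that attracts T cells, stood at -3.37, -3.77 and -3.88 in shLuc cells and at -1.3, -0.90 and -1.52 in shSix4 cells. The groups were far apart, with a difference of 2.43 ± 0.19 (adjusted p 0.00142, and 0.00327 without the block). Il33, an alarmin kept in the nucleus of stromal cells, stood at -2.66, -2.53 and -2.75 against 0.23, -0.74 and -0.69, a difference of 2.25 ± 0.33 (adjusted p 0.00979, and 0.0234 without the block). With empty vector Ccl5 had 0.53 and Il33 -0.51. The lymphatic growth factor gene Vegfc stood at -0.17, -0.62 and -0.18 against 0.78, 0.62 and 0.81, a difference of 1.06 ± 0.14. The monocyte chemokine gene Ccl2 rose by 1.57, the macrophage growth factor gene Csf1 by 0.75 and Cx3cl1 by 0.65, while Il15 fell by 0.74. Dropping 1 array with MyoD left 2 to 5 of the 6.

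The 15 genes with the highest differences also held several that were near the detection limit in shLuc cells. Agtr2, the angiotensin II type 2 receptor, was well above background on 0 of 3 shLuc and 3 of 3 shSix4 arrays with MyoD, with levels of -7.52, -6.03 and -6.49 against -4.48, -2.78 and -2.13, and was at least 5.69-fold higher (adjusted p 0.00979). With empty vector it had 2.88 (adjusted p 0.0488). Under the same rule the lectin-like receptor gene Klrb1a was at least 2.1-fold, Xdh, which encodes xanthine dehydrogenase, at least 2.01-fold and Kndc1 at least 1.41-fold higher. All 3, and Slc5a7, were lower in shSix4 cells under the normexp background (Klrb1a -0.35, Xdh -0.50, Kndc1 -0.53 and Slc5a7 -0.23). Fgf10, a growth factor of limb and fat mesenchyme, stood at -3.47, -1.89 and -2.0 in shLuc cells and at -1.82, 0.26 and 0.59 in shSix4 cells, a difference of 2.13 ± 0.27 (adjusted p 0.00904), and rose by 1.87 with empty vector (adjusted p 0.0232). The glucuronosyltransferase gene Ugt2b37 rose by 2.52 with MyoD and by 2.31 with empty vector. The proliferin genes Prl2c5 (2.35) and Prl2c3 (2.27) are near-identical copies, so their separate values are uncertain. The others were the ubiquitin-like gene Ubd (2.30), the potassium channel partner gene Kcnip4 (2.10), the choline transporter gene Slc5a7 (1.95), the secretory granule gene Scg5 (1.94) and Pik3r5 (1.81), a regulatory subunit of a phosphoinositide kinase.

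Further lists held 0 to 2 calls each, against 2.69% of all genes that fell and 1.65% that rose. In the TGF-beta and BMP list of 37 genes the ligand Gdf6 fell by 1.22, and with empty vector by 1.81 (adjusted p 0.00452), and the receptor Tgfbr2 rose by 0.70. In the Wnt list of 31 genes the inhibitor Nkd1 fell by 1.39, among 30 p53 targets Trp53inp1 fell by 0.95, and among 18 dystrophin complex genes Sspn fell by 0.55 and Dtnb rose by 0.52. Of 26 genes of cholesterol synthesis 1 fell, Fdft1 (-0.69), the first enzyme committed to sterols. In that list 13 were lower on all slides, against 19.2% of all genes. Its median was -0.29, but -0.04, -0.39 and -0.53 by slide. Of 27 antioxidant genes under Nrf2, Srxn1 rose by 0.80. Me1, the cytosolic malic enzyme that supplies NADPH, fell in this list with values of 2.38, 2.39 and 2.51 in shLuc cells against 0.98, 0.79 and 0.58 in shSix4 cells, a difference of -1.65 ± 0.14 (adjusted p 0.00227). It fell by 1.78 with empty vector (adjusted p 0.00345). Of 36 interferon response genes, 32 genes of unfolded protein and amino acid stress and 21 writers and erasers of H3K27 methylation none passed the limma test. In the last group the demethylase genes Kdm6a and Kdm6b had -0.18 and 0.09, and the methyltransferase genes Ezh2 and Ezh1 -0.32 and 0.55 (adjusted p 0.112 for Ezh1).

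Cell cycle genes were lower in shSix4 cells on slides 2 and 3 and not on slide 1. None of 51 passed, and 9 were lower on all slides, a share near the 19.2% of all genes. The median difference was 0.27 on slide 1, -1.15 on slide 2 and -1.10 on slide 3 with MyoD, and 0.05, -1.48 and -1.46 with empty vector. The mean level of the list with MyoD was 2.55, 2.41 and 2.38 by slide in the shLuc line, against 2.75, 1.32 and 1.35 in the shSix4 line, so the slide 1 array of shSix4 cells stood apart from the other shSix4 arrays. Ccnb1, the cyclin of mitosis, had 0.13, -1.88 and -1.58 by slide, and Ccna2, the cyclin of S phase, 0.16, -1.86 and -1.28. With slide 1 left out, 32 of the 51 genes were called lower, against 449 of all 12289 genes, and the median was -1.13. Sarcomere genes did not divide this way: their median on slide 1 was as low as on the other slides.

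**Figure D4:**
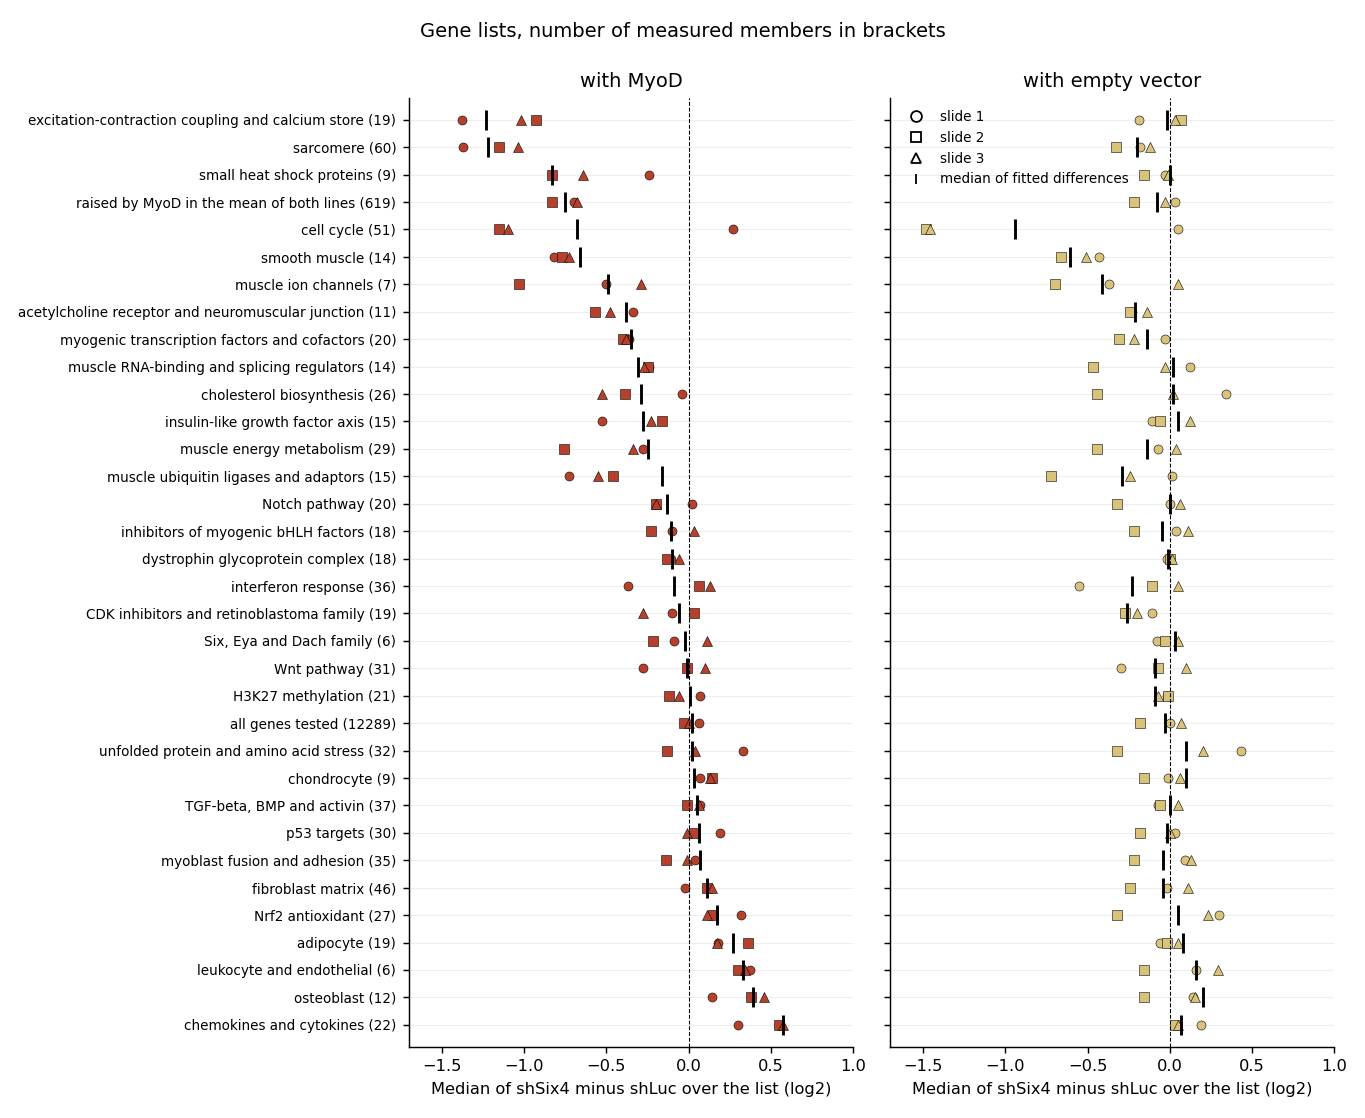
Median difference between shSix4 and shLuc on each slide (log2) for each gene list, with MyoD and with empty vector. Sarcomere and excitation-contraction coupling genes lie near -1 on every slide with MyoD and nearer 0 with empty vector, and cell cycle genes lie near 0 on slide 1 and below -1 on slides 2 and 3 with either vector.

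Genes that respond to MyoD were then taken as a class, chosen on the mean response of both lines. Of the 619 genes that MyoD raised at least 2-fold, 182 fell and 10 rose after knockdown, against 2.69% and 1.65% of all genes. On all 3 slides 438 were lower and 43 higher, against 19.2% and 23.2% of all genes, and the median difference was -0.75 (-0.70, -0.83 and -0.68 by slide), against -0.08 for the same genes with empty vector. With empty vector 133 of them were above background on no shLuc array, where a reduction could not be measured. Of the 619, 314 had a probe well above background on all 12 arrays. Among these 103 fell and 8 rose with MyoD, and the median was -0.54. Without the block 21 of the 619 passed in the lower direction and 3 in the higher. Leaving out 1 array with MyoD left 46 to 107 lower calls, and 22 without the third shLuc array. Of the 123 genes that MyoD lowered at least 2-fold, 1 fell and 6 rose, and 0 passed without the block. Their median was 0.21, but -0.32, 0.49 and 0.37 by slide, and it turned to -0.39 under the normexp background correction. Without the second shSix4 array with MyoD it was -0.00 with 3 higher calls, and without the first 0.49 with 11.

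**Figure D5:**
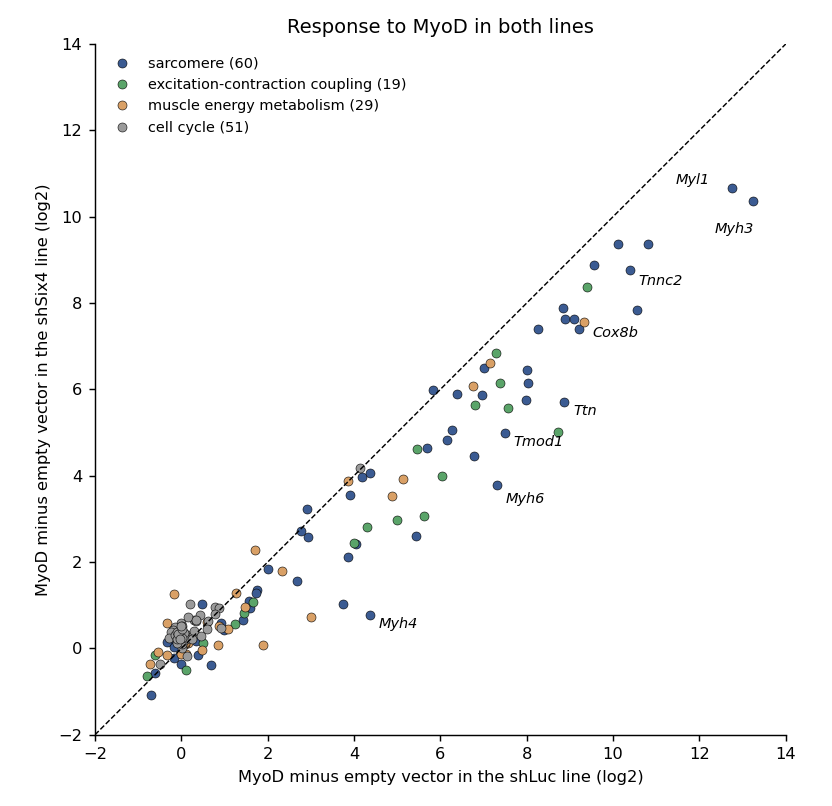
MyoD response (MyoD minus empty vector, log2) in shLuc cells on the x axis and in shSix4 cells on the y axis for genes of the sarcomere, excitation-contraction coupling, energy metabolism and the cell cycle, with the line of equal response. Most sarcomere and coupling genes lie below the line of equal response and still well above 0 on the y axis.

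The knockdown without MyoD changed fewer genes past the threshold. With empty vector 78 of 12289 genes passed (0.635%), 61 lower (0.496%) and 17 higher (0.138%). This count moved between 13 without the second and 267 without the first shSix4 array with empty vector, and was 7 without the block. Of these, 42 were also lower and 15 also higher with MyoD, and 0 went in opposite directions. The 2 comparisons set different arrays against each other, but share the lines and, in the 1 fit, the estimate of each gene's spread. A gene with little scatter among slides is thus favoured in both, so these overlaps are not independent evidence. Of the 331 genes lower with MyoD, 185 were lower on all 3 slides with empty vector and 13 higher, against 18.3% and 14.5% of all genes. Of the 203 higher with MyoD, 167 were higher on all slides and 2 lower. Whether the effect of knockdown differed between the vectors was tested as an interaction, and 0 genes passed in limma, with 745 at an unadjusted p under 0.05 and a smallest adjusted p of 0.137. Chrna1 had -1.49 with MyoD and -0.21 with empty vector, Ccl5 2.43 and 0.53, and Il33 2.25 and -0.51, but these pairs are not shown to differ. Of the 60 sarcomere genes 12 were above background on no shLuc array with empty vector, where a reduction could not be measured.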

How the data were processed

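Each deposited scanner file holds the Cy3 intensity of the spots of 1 Agilent array on a linear scale. The authors extracted it with Agilent Feature Extraction. The submitters' processing notes give version 10.5.1.1, while 11.5.1.1 stands in the files themselves. The processed signal is background-corrected within its array, per the file headers. A second deposited file holds normalized log2 values of the authors (3891 probes here, r = 0.9993 to 0.9998 with log2 of the processed signal, column medians 8.659 to 8.717). Its normalization is not stated, and it served only as an alternative.

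Of 45018 spots per array, control spots and the 87 to 322 outlier-marked ones were dropped, which gave 41174 probes. From log2 of the signal each array's 75th percentile over non-control probes was subtracted. A probe was kept (23954 were) if some group had it well above background on each of its 3 arrays. They were named through RefSeq accessions and a RefSeq gene list (GRCm38.p6, for names only), which named 24823 of the 26346 probes that carry an mRNA accession, and 21 more, with 16330 unnamed. The named probe with the highest mean stood for a gene, giving 12289 genes, 145 of them with a missing value. The precision is limited by the number of arrays.

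The test was limma 3.58.1 (R 4.3.3, files read with the data.table package, 1.17.8), fitted on all 12 arrays with group means and the replicate number as a block, 6 residual and 3.4 prior degrees of freedom, Benjamini-Hochberg adjustment over all genes and a threshold of 0.05. All p-values of genes are adjusted unless stated otherwise. The replicate number marks the slide, per the file headers. Deviations from group means correlated at 0.2779 to 0.8186 over 12144 genes for arrays of the same number (18 pairs) and at -0.7335 to 0.4976 for arrays of different numbers (36 pairs). The deviations of a group cancel out for each gene, which by itself pushes the latter down. Every pair of slide 1 with another slide was negative, while pairs of slides 2 and 3 had -0.0098 to 0.4976. Where a group had a gene above background on 0 arrays, its fold is a bound. For this the dim array's value was raised to the weakest signal that any probe well above background had on that array, if it lay under it, and group means were then compared. Tested on simulated data, the MyoD comparison recovered 68 of 100 genes at a log2 change of 1 and 94 of 100 at 2, with 3 false calls among 12144 genes. The simulation drew independent normal noise for each gene, with slide shifts that were equal in all groups. It does not cover differences between the lines that vary by slide, such as those of the cell cycle genes, so its false calls do not describe these arrays.

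Genes named are the 15 lowest and 15 highest called changes with the same sign on all slides, Six4, Myod1 and Myog, the 4 largest called changes of each of 32 gene lists, and genes of the Six4 family, their Eya partners and the H3K27 list, of which some are not reported here. Further list members were named after their values were seen, among them all other called members and the uncalled values of well-known genes. The samples, lists and rules were chosen with earlier results of these data known. The description field of the samples disagrees with the title, source and characteristics and was left aside. Alternatives were the fit without the block, the 6 arrays with MyoD alone, quantile normalization, normexp with an offset of 50, other filters and probe rules, the authors' values, and leaving out each array and slide. Because the files hold no mean signal, normexp used the median signal and the local background. It left median signals of 1022, 748 and 260 on 3 arrays against 100 to 130 on the others. These were the second shLuc array with empty vector, the second shLuc array with MyoD and the third shSix4 array with empty vector. Subtraction of the local background was therefore added after seeing the data. Tables and figures were made with Python 3.11.15, pandas 2.3.3, numpy 2.4.6 and matplotlib 3.10.9.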

Additional observations from a re-analysis of the deposited data

How the results depend on the processing

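The number of genes called for the knockdown with MyoD (534) rested on pairing arrays by slide and on the signal used: it was 38 without the replicate block, 295 in the 6 arrays with MyoD alone with the block, 188 with no filter on dim probes, 144 in the authors' table (2635 genes) and 0 under the normexp background in limma, where 597 genes had an unadjusted p under 0.05. Quantile normalization gave 605 and local background subtraction 525. Leaving out 1 array gave 60 to 731, and leaving out a slide 0 to 614. With empty vector the count (78) was 7 without the block, 0 under normexp (576 at an unadjusted p under 0.05), 19 with no filter and 26 in the authors' table, and 13 to 267 without 1 array and 0 to 448 without 1 slide. The difference between the vectors had 0 calls, but 2 under quantile normalization (Chrna1 and Klrb1a), 1 in the authors' table (Myh6), 1 without the second shLuc array with empty vector (Cd36) and 1 without slide 1 (Cmtm5), a range of 0 to 1 over arrays and slides left out.

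The Six4 difference (-1.18) lost its call without the block (-1.18, adjusted p 0.551), in the 6 arrays with MyoD (-1.18, adjusted p 0.0592), with no filter (-1.18, adjusted p 0.101), under normexp (-1.02, adjusted p 0.719) and with local background subtracted (-0.63, adjusted p 0.118). It was -1.38 to -0.99 without 1 array (adjusted p 0.0155 to 0.144) and -1.43 to -0.98 without 1 slide. Under normexp 4 higher genes reversed, Klrb1a (-0.35), Kndc1 (-0.53), Slc5a7 (-0.23) and Xdh (-0.50), of which Klrb1a, Kndc1 and Xdh were not above background in shLuc cells. Normexp left a median signal of 748 on the second shLuc array with MyoD, against 97 after subtraction of the local background. The cause of these changes was not tested. Over named genes, alternatives that left no array out gave the same call 768 times, a lost one 258 times and a gained one 7 times. The medians of the sarcomere, excitation-contraction coupling and chemokine lists kept their sign under every alternative run.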
